A study of Homo sapiens with 16 samples.

Results

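The 10 genes described here encode chains of the basement membrane: the 6 chains of type IV collagen (COL4A1, COL4A2, COL4A3, COL4A4, COL4A5 and COL4A6) and 4 laminin chains (LAMA5, LAMB1, LAMB2 and LAMC1). They were chosen by name, with earlier results of these data known. The question put to them was whether the chain switch that accompanies maturation of the glomerulus can be seen in kidney organoids. All 10 were listed among the 20121, 27650 and 21093 genes of the 3 bulk RNA tables and among the 36601 genes of the single-cell matrices.

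All samples were kidney organoids grown from UM77-2, an established human embryonic stem cell line with no engineered allele named in the labels. Bulk set 1 held 1 library each of isolated spheroids at day 21 (D21), D25 and D29, and bulk set 2 held 2 libraries at each of these days, from organoids fed daily from D17. The TNFα set held spheroids given 5 ng/ml TNFα, an inflammatory cytokine, or vehicle control (VC), with 1 library per treatment at 24 h and 48 h. The labels give treatment at D23, renewed at D24 for the 48 h wells, and collection at D25 for the whole set, so when the 24 h exposure began and ended is not clear. Single cells came from D24 organoids after 24 h of VC or 5 ng/ml TNFα, with 1 library each. Per the study's methods these were whole-well cultures, whereas bulk RNA came from isolated spheroids. Bulk and single-cell samples are therefore not the same material. Nothing in the labels ties the libraries of a day to separate differentiations, so p-values measure the spread between these samples only, and a single stem cell line was used throughout. Organoids hold podocytes, tubule and stromal cells together, with off-target neuronal and muscle cells, and have no blood flow.

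Type IV collagen is secreted as trimers of 3 kinds. The α1α1α2 trimer (COL4A1, COL4A2) is found in nearly all basement membranes and in the early glomerulus, the α3α4α5 trimer (COL4A3, COL4A4, COL4A5) replaces it in the mature glomerular basement membrane, where podocytes make it, and the α5α5α6 trimer (COL4A6) belongs to Bowman's capsule and some tubules. Laminins are trimers of an α, a β and a γ chain. In the maturing glomerulus laminin-521 (LAMA5, LAMB2, LAMC1) takes over from laminin-511 (LAMA5, LAMB1, LAMC1), so that LAMB1 gives way to LAMB2. The α3α4α5 chains are the genes of Alport syndrome, and LAMB2 is the gene of Pierson syndrome. Transcripts only were measured here, not trimers or deposited protein.

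The collagen IV genes lie head to head in pairs, so that a pair shares the stretch between its start sites. COL4A1 and COL4A2 on chromosome 13 start 126 bases apart, COL4A3 and COL4A4 on chromosome 2 start 418 bases apart, and COL4A5 and COL4A6 on chromosome X start 379 bases apart. The stretches upstream of COL4A1, COL4A3, LAMB1 and LAMB2 are printed, to set the fetal partners (COL4A1, LAMB1) beside the mature ones (COL4A3, LAMB2). They are read from RefSeq on GRCh38.p14, 5′ to 3′ on the strand of the gene. Annotated exons are left out, of neighbouring genes and, for LAMB1 and LAMB2, of the gene itself. Capitals mark the CCAAT box, searched by these letters on both strands, and the GC box, searched as GGGCGG on both strands. The COL4A1 stretch is chr13:110307158-110307257 (minus strand), the COL4A3 stretch chr2:227164454-227164623 (plus), the LAMB1 stretch chr7:108003214-108003411 (minus, 52 bases before the start site) and the LAMB2 stretch chr3:49133119-49133300 (minus, 68 bases before the start site).
COL4A1: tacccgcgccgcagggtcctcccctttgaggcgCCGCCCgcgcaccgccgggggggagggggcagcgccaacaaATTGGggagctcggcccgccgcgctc
COL4A3: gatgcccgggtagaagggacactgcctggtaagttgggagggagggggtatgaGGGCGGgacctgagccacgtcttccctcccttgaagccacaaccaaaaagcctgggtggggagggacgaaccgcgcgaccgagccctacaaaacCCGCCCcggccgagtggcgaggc
LAMB1: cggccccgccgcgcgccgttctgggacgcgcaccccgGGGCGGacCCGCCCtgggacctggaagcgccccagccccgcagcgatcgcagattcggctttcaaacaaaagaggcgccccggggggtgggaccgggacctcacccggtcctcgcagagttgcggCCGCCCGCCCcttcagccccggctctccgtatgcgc
LAMB2: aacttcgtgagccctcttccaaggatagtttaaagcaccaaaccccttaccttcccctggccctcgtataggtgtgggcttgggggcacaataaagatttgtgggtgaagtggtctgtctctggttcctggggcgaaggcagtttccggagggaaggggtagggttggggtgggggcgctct
In the 250 bases before each start site, CCAAT was found 1 time each for COL4A1 and COL4A2, 2 times for COL4A5 and 3 times for 1 of the COL4A6 starts, and not for COL4A3, COL4A4 or the 4 laminin genes. The GC box was found 2 times each for COL4A1 and COL4A3, 1 time each for COL4A2 and the other COL4A6 start, 5 times for LAMA5, 4 times for LAMB1, 3 times for LAMC1 and 1 time for LAMB2, and not for COL4A4 or COL4A5, and overlapping matches were counted separately. Over 34788 upstream windows of the same length 32.0% held the CCAAT letters and 42.6% those of the GC box. TATAAA, held by 10.8% of windows, was found before none of the 10 genes. The printed stretches can hold fewer matches than the windows, as for LAMB2, whose stretch has no GC box. These letters are a description of the windows and say nothing of binding.

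Bulk libraries held between 19073609 and 59246286 reads. Values are log2(CPM + 1), where CPM is reads per 1000000 reads, and levels of different genes are compared only as CPM per kilobase of transcript. Beside the members, podocyte markers were called lower between D21 and D29 of set 2 for 6 of 10 genes (median log2 change -1.07), proximal tubule markers for 6 of 10 (-0.55), and stromal markers were called higher for 8 of 9 (1.51), with the median of all genes at -0.02. Neuronal markers were called higher for 9 of 10 (1.01), mural markers for 6 of 8 (1.02) and muscle markers for 6 of 9 (1.24). In bulk samples, fewer cells of a type and less RNA per cell cannot be told apart. None of the leukocyte markers was listed in the bulk tables.

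The mature chains COL4A3 and COL4A4 rose with culture duration, while the fetal chains COL4A1 and COL4A2 were not called. In set 2, COL4A3 stood at 3.33 and 2.77 at D21, 3.80 and 3.63 at D25, and 4.63 and 4.74 at D29. COL4A4 stood at 3.86 and 3.43, 4.75 and 4.66, and 5.43 and 5.63 on the same days. For both genes every D29 library lay above every D25 library, and every D25 library above every D21 library. LAMA5, LAMB2 and LAMC1 were ordered as fully downwards. Both D29 libraries lay above both D21 libraries for 27.1% of all genes and below them for 32.8%. The share ordered over D21, D25 and D29 was not computed, so the order is not read as particular to these genes. Between D21 and D29 COL4A3 rose by 1.64 ± 0.18 (log2 fold change ± SE) and COL4A4 by 1.88 ± 0.14, with adjusted p-values of 0.000798 and 0.00019 from limma. Of all genes 10.0% were called higher in this comparison and 8.33% lower (18.4% in either direction), against 2 of 10 members higher and 2 lower. COL4A4 was the only member called between D21 and D25 (1.06 ± 0.14, limma adjusted p = 0.00758, against 3.39% of all genes higher, 1.99% lower and 5.37% in either direction), where COL4A3 stood at 0.67 ± 0.18 with a limma adjusted p of 0.0842. Both were called between D25 and D29, COL4A3 at 0.97 (limma adjusted p = 0.0444) and COL4A4 at 0.82 (0.0378), against 1.25% of all genes called higher and 2.08% called in either direction. The calls of COL4A3 and COL4A4 between D21 and D29 held in each of 13 alternative fits, whereas those of the shorter intervals did not.

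Levels of COL4A3 and COL4A4 stayed low beside those of the other chains. Per kilobase, COL4A3 went from 0.926 to 3.08 CPM and COL4A4 from 1.17 to 4.53 CPM between D21 and D29 (means of 2 libraries). COL4A1 went from 82.7 to 83.4 CPM per kilobase and COL4A2 from 206 to 171 over the same days. The reads behind COL4A3 numbered between 160 and 719 per library in set 2. Up to 20.6% as many reads fell on MFF-DT, a lncRNA gene on the opposite strand that overlaps COL4A3. The sources used here do not say whether counting used strand, and COL4A1 and COL4A2 overlap at their starts in the same way.

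COL4A1 stood at 9.07 and 9.09 at D21 and at 9.13 and 9.06 at D29, so its days overlapped (0.01 ± 0.08, limma adjusted p = 0.953, a direction that turned in 2 of 13 alternative fits). COL4A2 stood at 10.33 and 10.42 at D21 and 10.11 and 10.10 at D29, a difference of -0.27 that was not called (limma adjusted p = 0.126). The third mature chain, COL4A5, differed by 0.15 ± 0.09 between D21 (8.88 and 8.71) and D29 (8.93 and 8.96), which was not called either (limma adjusted p = 0.294). COL4A6 stood at 6.69 and 6.54 at D21 and at 6.85 and 7.10 at D29, with a difference of 0.36 and a limma adjusted p of 0.0525 that fell under 0.05 in 6 of 13 alternative fits. Thus the mature trimer's α3 and α4 transcripts moved together, and its α5 transcript was not called.

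Laminin transcripts went down or were not called, and LAMB2 did not rise. LAMA5, the α chain of both glomerular laminins, stood at 9.85 and 9.80 at D21, 9.54 and 9.53 at D25 and 9.16 and 8.83 at D29. LAMC1, the shared γ chain, stood at 9.28 and 9.30, 9.02 and 8.98, and 8.82 and 8.60 on these days. Between D21 and D29 LAMA5 fell by 0.83 ± 0.12 and LAMC1 fell by 0.58 ± 0.09 on the log2 scale, with limma adjusted p-values of 0.0023 and 0.00399, and no library of D29 overlapped D21 for either. Groups that did not overlap, D29 below D21, were found for 32.8% of all genes, and above it for 27.1%. LAMB1, the fetal β chain, stood at 10.66 and 10.58 at D21 and 10.29 and 10.25 at D29, a difference of -0.35 ± 0.11 with a limma adjusted p of 0.0633 that fell under 0.05 in 7 of 13 alternative fits. LAMB2, the mature β chain, stood at 8.89 in both D21 libraries and at 8.74 and 8.62 at D29, a difference of -0.21 ± 0.08 that was not called (limma adjusted p = 0.105). ADRM1, which lies across LAMA5 on the opposite strand, had reads up to 17.6% of those of LAMA5 in any bulk table. Reads of the pseudogene LAMB2P1 reached 2.09% of those of LAMB2.

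**Figure D1:**
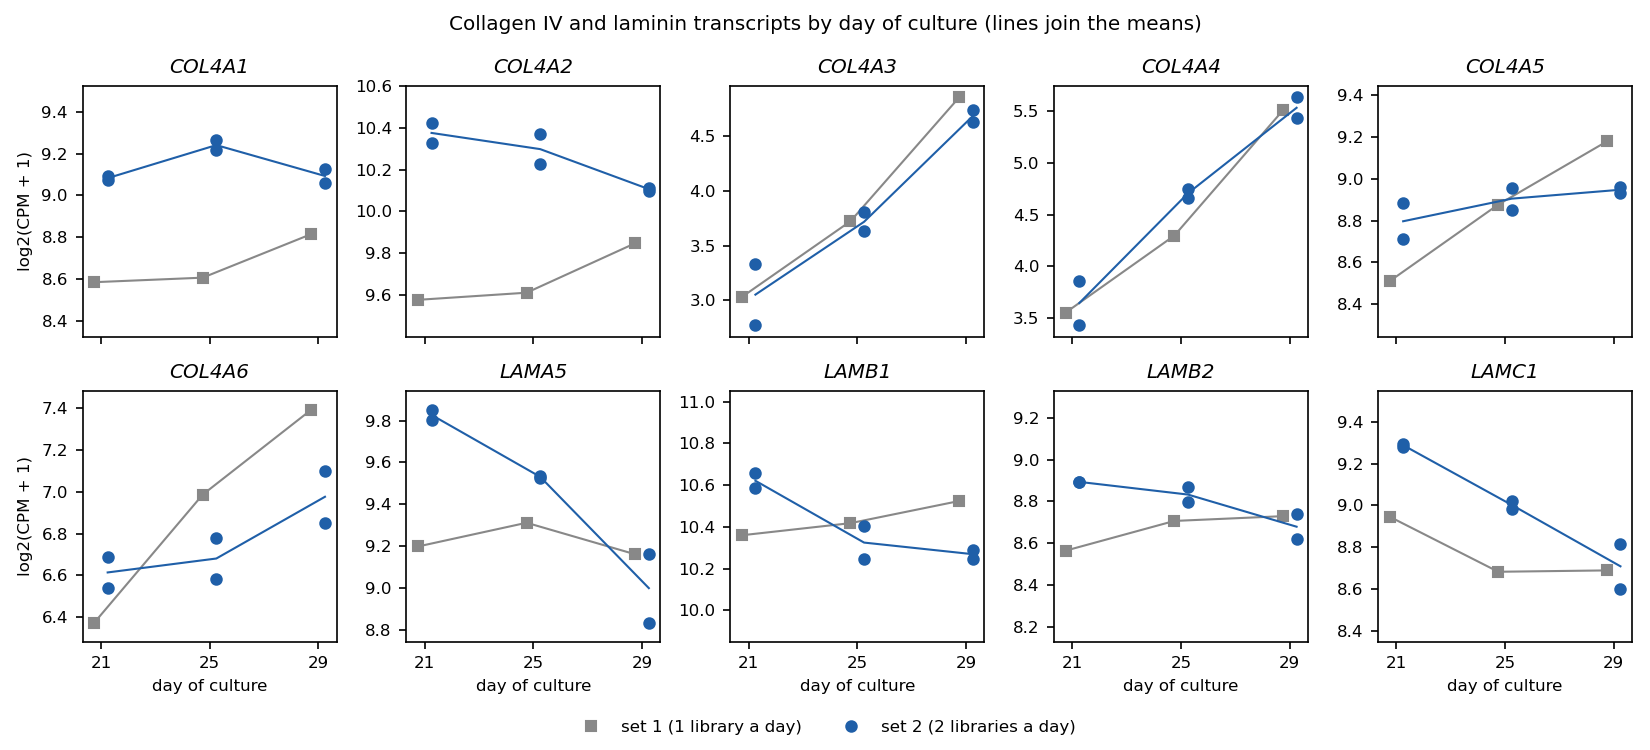
Level of each of the 10 members, log2(CPM + 1), against day of culture. Blue points are the 2 libraries per day of set 2, grey squares the single libraries of set 1, and lines join the means of a set. Each panel has its own vertical range. COL4A3 and COL4A4 climb in both sets, whereas LAMA5 and LAMC1 go down in set 2.

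Set 1 gave the same order of days for the mature collagen chains without replicates. COL4A3 stood at 3.03, 3.72 and 4.86 at D21, D25 and D29, and COL4A4 at 3.56, 4.30 and 5.50. Their D21 to D29 differences of 1.83 and 1.95, and that of COL4A6 (1.02), passed a log2 fold change of 1, as did 3.09% of all genes upwards and 1.41% downwards. COL4A5 differed by 0.67, COL4A2 by 0.27 and COL4A1 by 0.23. In contrast to set 2, LAMA5 differed by -0.04 only, from 9.20 at D21 to 9.16 at D29, and LAMB1 by 0.16. LAMC1 differed by -0.26 and LAMB2 by 0.17. Sets 1 and 2 were normalized separately, so their levels were not tested against each other.

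The chain shares put these levels together within a library. Of all collagen IV transcripts per kilobase, the α3, α4 and α5 chains made up 20.1% and 17.5% in the D21 libraries of set 2, 21.5% and 19.2% at D25, and 23.0% and 23.7% at D29. Means were 18.8% ± 1.84 (SD, n = 2) at D21 and 23.3% ± 0.477 at D29. The difference of 4.53 percentage points had an exact two-sided permutation p of 0.333, the smallest that 2 against 2 libraries allow. Most of that share was α5 at both ends, with 18.2% at D21 and 21.2% at D29, and α3 and α4 together went from 0.561% to 2.14%. The α1 and α2 chains still made up 71.4% at D29. In set 1 the α3, α4 and α5 share was 23.4%, 27.4% and 29.0% at D21, D25 and D29.

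LAMB2 made up 22.6% and 23.5% of the β1 and β2 transcripts at D21 in set 2, 24.5% and 27.7% at D25, and 25.2% and 24.3% at D29. D29 lay 1.72 percentage points above D21 (23.0% ± 0.622 to 24.8% ± 0.679, SD, n = 2), again with an exact permutation p of 0.333. The highest of the 6 values was that of a D25 library. In set 1 the share was 22.2%, 23.2% and 22.2%, equal at its ends to this rounding. LAMB1 thus outnumbered LAMB2 in each of the 9 time-course libraries.

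**Figure D2:**
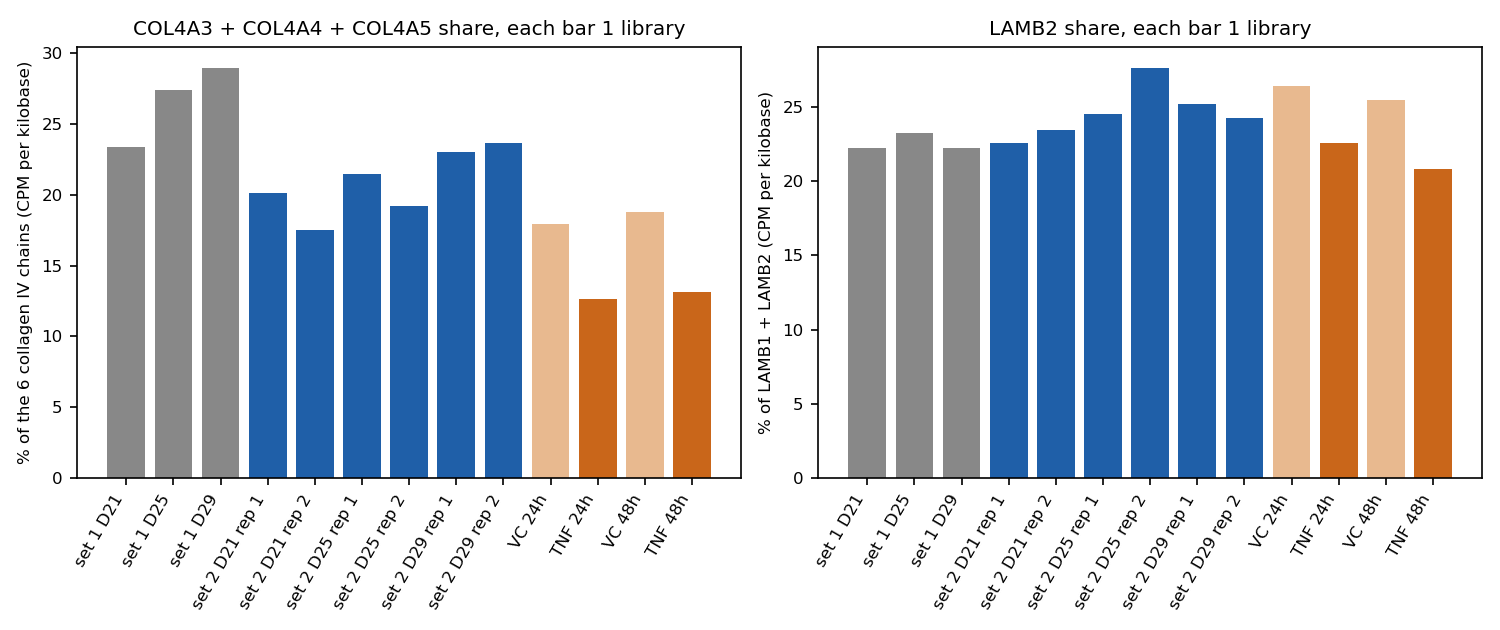
Chain shares in each bulk library, from CPM per kilobase. The left panel gives COL4A3, COL4A4 and COL4A5 as a percentage of the 6 collagen IV chains, the right panel LAMB2 as a percentage of LAMB1 and LAMB2, and each bar is 1 library. The collagen share lies between 17.5% and 23.7% in set 2 and is lower with TNFα, and the LAMB2 share stays under 28% in all 13 libraries.

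Podocytes make the mature trimer of the glomerulus, and summed podocyte markers went down over the same days. The sum of the 10 markers was 11531 and 12100 CPM at D21 of set 2, 9544 and 9718 at D25, and 8029 and 3797 at D29. In set 1 it was 7390, 4566 and 2948 CPM. Per 1000 CPM of these markers, COL4A3 stood at 0.786 and 0.481 CPM at D21 and at 2.96 and 6.78 at D29, and COL4A4 at 1.17 and 0.811 and at 5.24 and 12.8. By the same measure LAMB2, whose own level did not rise, stood at 41.2 and 39.2 at D21 and at 53.0 and 103 at D29. In set 1 LAMB2 stood at 51.1 at D21 and 144 at D29 by this measure. Stromal markers summed to 4269 and 3798 CPM at D21 and 11420 and 13840 at D29, and proximal tubule markers to 1195 and 961 and then to 580 and 453. In the VC single cells described below, podocyte-like cells held 10.3% of COL4A3, 21.6% of COL4A4 and 39.9% of LAMB2 molecules. The ratios to podocyte markers are therefore not levels per podocyte. The part of any of these cells in the rise of COL4A3 and COL4A4 was not tested in bulk.

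Other basement membrane genes moved in both directions between D21 and D29. Of the 8 other laminin chains 3 were called higher and 3 lower, of 20 linkers and proteoglycans 7 were called higher and 7 lower, and of 16 genes for collagen IV assembly and modification 4 were called higher and 3 lower. The list medians were 0.19, -0.15 and -0.04 beside -0.02 for all genes. The largest rises were those of TINAGL1 (2.45), a tubulointerstitial antigen-like matrix protein, COL15A1 (2.24), a proteoglycan collagen of basement membrane zones, LAMB3 (1.39), LAMA2 (1.16), the α chain of muscle laminin, and LOXL2 (1.13), which crosslinks collagen IV. The largest falls were those of LAMB4 (-1.94), FRAS1 (-1.32), a matrix protein of the Fraser complex, NPNT (-1.19), an integrin ligand, LAMC3 (-1.14) and TINAG (-1.09), a tubulointerstitial antigen. The limma adjusted p-values of these 10 genes lay between 4.08e-05 and 0.0106.

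TNFα was followed by more transcript of the fetal chains COL4A1 and COL4A2 and less of the mature chain COL4A4. COL4A1 stood at 9.25 with VC and 9.86 with TNFα at 24 h, and at 9.20 and 9.80 at 48 h. COL4A2 stood at 10.54 and 10.97 at 24 h, and at 10.52 and 10.96 at 48 h. COL4A4 stood at 4.85 and 4.06 at 24 h, and at 4.87 and 4.35 at 48 h. Both TNFα libraries lay outside the range of both VC libraries for these 3 genes, as for every other member. The share of all genes that did so was not computed, so this separation is not read as particular to the members. With the times standing in for replicates, COL4A1 rose by 0.61 ± 0.06 and COL4A2 by 0.44 ± 0.07, while COL4A4 fell by 0.66 ± 0.09 on the log2 scale (limma adjusted p = 1.2e-06, 0.000128 and 3.77e-05), calls that held in each of 7 alternative fits. Of all genes 8.42% were called higher and 10.8% lower (19.3% in either direction), against 3 of 10 members in each direction. COL4A3 stood at 3.89 with VC and 3.47 with TNFα at 24 h and at 3.81 and 3.56 at 48 h, and fell by 0.33 ± 0.10 (limma adjusted p = 0.0305), a call lost with DESeq2 (adjusted p = 0.281) and without the time term (0.223). COL4A5 (-0.11) and COL4A6 (0.08) were not called.

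Among the laminins LAMA5 was called higher and LAMB2 lower. LAMA5 stood at 9.21 with VC and 9.46 with TNFα at 24 h, and at 9.19 and 9.42 at 48 h (0.24 ± 0.06, limma adjusted p = 0.00998). LAMB2 stood at 9.18 and 8.89, and at 9.07 and 8.82 (-0.27 ± 0.06, limma adjusted p = 0.00367). Both calls were lost without the time term, where the limma adjusted p was 0.123 for LAMA5 and 0.109 for LAMB2, and without a mean trend. LAMB1 (0.06) and LAMC1 (0.13) were not called. No member reached a log2 fold change of 1 at either time, against 1.28% of all genes upwards and 0.730% downwards at 24 h, and 1.07% and 0.754% at 48 h. At both times 6 of 10 members were higher, though for LAMB1 by 0.00 at 24 h, and 4 were lower, beside 28.6% and 39.7% of all genes.

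**Figure D3:**
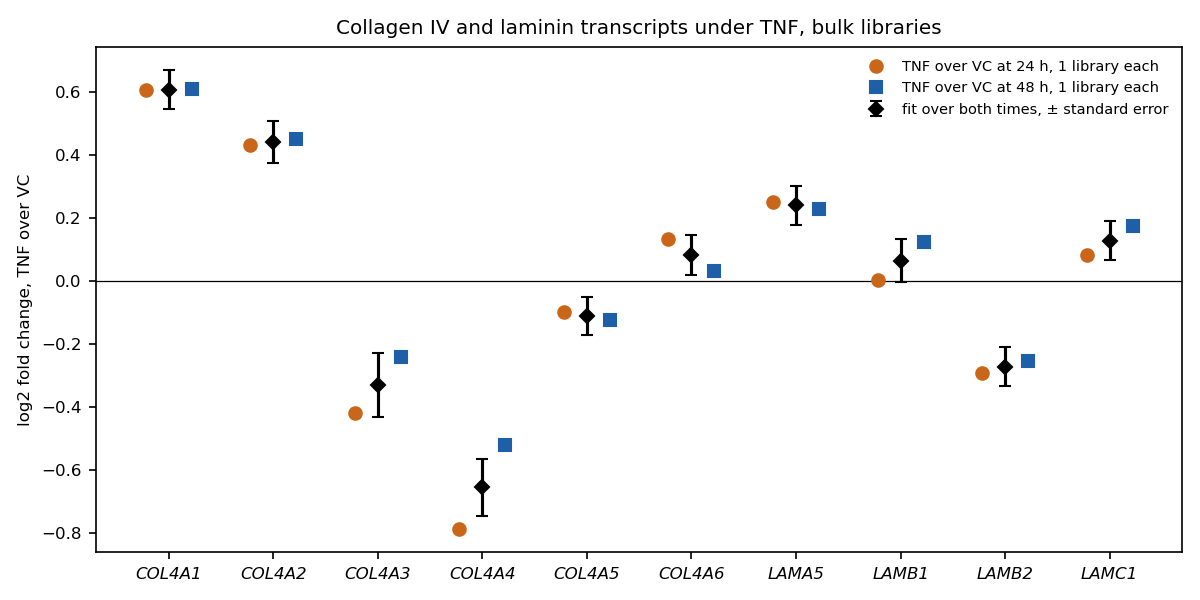
Difference between TNFα and VC for each member, as log2 fold change on the log2(CPM + 1) scale. Circles are 24 h and squares 48 h, 1 library per treatment each, and diamonds are the fit over both times with its SE. COL4A1 and COL4A2 lie above 0 at both times, and COL4A3, COL4A4 and LAMB2 below.

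The chain shares went down with TNFα at both times. The α3, α4 and α5 share of collagen IV was 17.9% with VC and 12.6% with TNFα at 24 h, and 18.8% and 13.1% at 48 h. Most of it was α5, at 16.9% and 12.1% and then 17.7% and 12.5%, though COL4A5 itself was not called. The α1 and α2 chains, whose transcripts rose, made up 77.6% and 83.6% at 24 h and 76.5% and 83.2% at 48 h. The LAMB2 share was 26.4% and 22.6% at 24 h, and 25.5% and 20.8% at 48 h. In the same libraries podocyte markers were called lower for 10 of 10 genes (median -0.83) and proximal tubule markers for 9 of 10 (-1.02), and mural markers were called higher for 6 of 8 (0.45). Schwann or neural crest glia markers were called higher for 6 of 7 and lower for 1 (median 0.51, lowest -0.56). Their sum went the other way, from 193 CPM with VC to 136 with TNFα at 24 h and from 199 to 193 at 48 h. Endothelial markers were called lower for 6 of 10 (-0.38). Podocyte markers summed to 7256 and 6731 CPM with VC and 4412 and 3267 with TNFα. Per 1000 CPM of these markers COL4A3 stood at 1.90 and 1.93 with VC and at 2.28 and 3.31 with TNFα, at 24 h and 48 h. COL4A4 stood at 3.84 and 4.21 with VC and at 3.56 and 5.95 with TNFα, so that it was lower at 24 h and higher at 48 h. LAMB2 stood at 80.1 and 79.6 with VC and at 108 and 138 with TNFα by this measure. The part of these cells in the chain shares was not tested in bulk.

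Of the other laminin chains 3 were called higher and 2 lower with TNFα, of the linkers and proteoglycans 4 higher and 7 lower, and of the assembly and modification genes 4 higher and 0 lower. Their medians were 0.08, -0.17 and 0.08, beside -0.03 for all genes. PAPLN (1.65), a matrix protein with protease inhibitor domains, LOXL2 (1.28), SMOC2 (1.18), a SPARC-related matrix protein, and FBLN1 (0.61), fibulin-1, were among the genes that rose most. FREM2 (-0.83), of the Fraser complex, LAMB4 (-0.77), NID2 (-0.70), which links laminin to collagen IV, NPNT (-0.52) and COL15A1 (-0.50) fell most. COL15A1 was called higher over days and lower with TNFα, and LOXL2 higher in both.

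In the single-cell libraries, 11906 VC cells and 23160 TNFα cells passed 500 genes, with a median of 6358.5 and 2599 UMIs (unique molecules) per cell. They share 82 cell barcodes. Clusters were built without the members, and 7 classes were named "-like" from marker lists. Podocyte-like cells (1408 VC and 4624 TNFα) carried 8 to 10 of 10 podocyte markers, and proximal tubule-like cells (1266 and 3185) carried 8 of 10. Stromal-like cells numbered 2604 and 4578. Levels are UMIs per 1000000 UMIs (CPM) with exact 95% Poisson intervals, which cover counting error only. There was 1 library per condition and hence no test between conditions, and UMI counts of this 3′ assay were not scaled by length.

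COL4A3 and COL4A4 were highest in proximal tubule-like cells, not in podocyte-like cells. With VC, COL4A3 stood at 3.36 CPM in proximal tubule-like cells (2.58 to 4.30, 63 UMIs) and at 0.554 CPM in podocyte-like cells (0.239 to 1.09, 8 UMIs), a ratio of 6.07 (2.90 to 14.7). No other named class exceeded 0.222 CPM. COL4A4 stood at 14.3 CPM in proximal tubule-like cells (12.6 to 16.1) and at 5.96 CPM in podocyte-like cells (4.76 to 7.35), a ratio of 2.40 (1.88 to 3.10), and muscle-like cells came next at 1.77 CPM. Proximal tubule-like cells were 10.6% of VC cells and held 80.8% of COL4A3 UMIs and 67.3% of COL4A4 UMIs. They were deeper, with a median of 8974 UMIs against 6358.5 over all VC cells, so shares of cells and of UMIs are not like measures. With cells gated on markers alone, in place of clusters, proximal tubule cells stood at 1.02 CPM of COL4A3 and 3.20 of COL4A4 and podocytes at 0.542 and 6.03, so that the order of COL4A4 turned round.

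After thinning to 1500 UMIs per cell, COL4A3 was seen in 0.490% of proximal tubule-like VC cells (6 of 1224) and 0.224% of podocyte-like VC cells (3 of 1337). In stromal-like cells it was seen in 0 of 2455 cells, which allows up to 0.122% of cells with a UMI at this depth and sets no limit on cells that express it. Unthinned, the 3 shares were 3.87%, 0.568% and 0.0384%, at median depths of 8973.5, 5473 and 4820 UMIs. COL4A4 was seen in 2.04% of proximal tubule-like, 0.972% of podocyte-like and 0 of 2455 stromal-like VC cells after thinning. COL4A3 and COL4A4 were not seen together in any thinned cell of these classes, at a depth where few such cells could be seen.

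The fetal collagen chains were spread over more classes. COL4A1 stood at 222 CPM (214 to 230) in stromal-like, 200 (194 to 207) in proximal tubule-like and 129 (123 to 135) in podocyte-like VC cells, and was lowest in neuronal-like cells at 22.8 CPM. COL4A2 was highest in proximal tubule-like cells at 271 CPM, followed by stromal-like cells at 209 and podocyte-like cells at 173. COL4A5 was highest in stromal-like cells at 118 CPM, 1.71 times (1.58 to 1.85) the 69.2 CPM of podocyte-like cells, and stood at 64.3 CPM in proliferating and 49.8 in proximal tubule-like cells. The intervals of podocyte-like (65.0 to 73.6) and proliferating cells (58.8 to 70.2) overlapped. COL4A6 was highest in stromal-like cells as well, at 32.2 CPM.

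Laminin chains of the mature glomerulus were highest in podocyte-like cells. LAMA5 stood there at 156 CPM, 3.22 times (2.98 to 3.48) the 48.4 CPM of proximal tubule-like cells, and LAMB2 at 120 CPM, 2.73 times (2.49 to 3.0) the 43.8 CPM of stromal-like cells. LAMC1 stood at 97.2 CPM in podocyte-like and 66.6 in proximal tubule-like cells. LAMB1 was highest in proximal tubule-like cells at 275 CPM, followed by podocyte-like cells at 158 (151 to 165) and stromal-like cells at 156 (150 to 163), whose intervals overlapped. Of 44 other pathway genes 16 had their highest level in podocyte-like, 12 in stromal-like and 7 in proximal tubule-like VC cells. NPNT stood at 292 CPM and LAMB4 at 64.8 CPM in podocyte-like cells, and LOXL2 at 53.3 CPM in stromal-like cells.

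**Figure D4:**
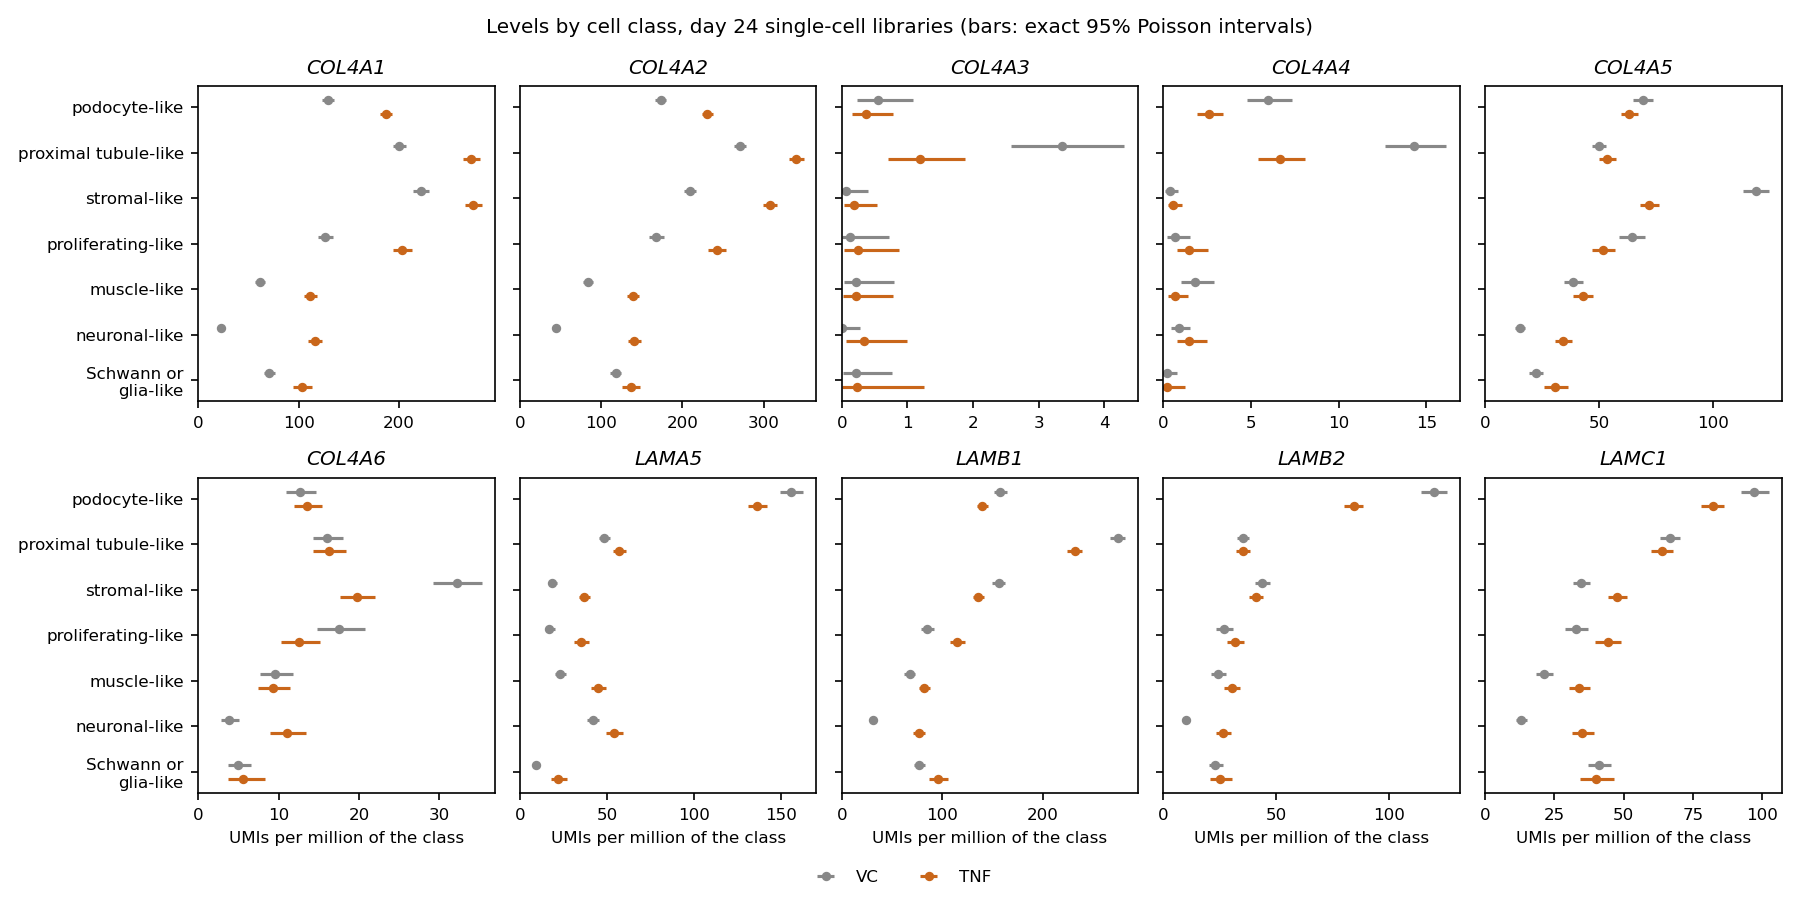
UMIs per 1000000 UMIs (CPM) of each member in 7 cell classes of D24 organoids, VC in grey and TNFα in orange. Points are sums over the cells of a class and bars exact 95% Poisson intervals, with 1 library per condition. COL4A3 and COL4A4 are highest in proximal tubule-like cells, LAMA5 and LAMB2 in podocyte-like cells.

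LAMB2 as a share of LAMB1 and LAMB2 was 43.1% (41.6 to 44.6, exact binomial) in podocyte-like VC cells, 21.9% (20.4 to 23.5) in stromal-like and 11.4% (10.6 to 12.2) in proximal tubule-like cells. The podocyte-like class held 2 clusters with different chains. In cluster 3 (937 VC cells, all 10 podocyte markers raised, led by DDN) LAMB2 stood at 139.6 CPM and LAMB1 at 80.1, a share of 63.6% (61.4 to 65.7). Cluster 8 (471 VC cells, 8 podocyte markers raised, led by TESC and ITIH5) held LAMB2 at 89.0 CPM and LAMB1 at 277, a share of 24.3% (22.5 to 26.2). COL4A1 stood at 86.0 CPM in cluster 3 and 195 in cluster 8, and COL4A4 at 7.33 (5.65 to 9.36) and 3.85 (2.41 to 5.83). The α3, α4 and α5 chains made up 26.2% of collagen IV UMIs in cluster 3 and 13.8% in cluster 8, most of it COL4A5 at 67.6 and 71.6 CPM. Cluster 3 held more LAMB2 than LAMB1 with VC, which none of the 7 named classes did as a whole, and unnamed cluster 13, led by MSX1 and DKK1, did so too with 62.8%.

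With TNFα, COL4A1 and COL4A2 were higher and COL4A4 lower in podocyte-like and proximal tubule-like cells. In podocyte-like cells the TNFα to VC ratio was 1.44 (1.37 to 1.53) for COL4A1, 1.33 (1.27 to 1.40) for COL4A2 and 0.434 (0.298 to 0.625) for COL4A4. In proximal tubule-like cells these ratios were 1.36 (1.30 to 1.42), 1.26 (1.21 to 1.31) and 0.466 (0.367 to 0.587), and COL4A3 stood at 0.353 (0.197 to 0.604). The COL4A3 ratio of podocyte-like cells, 0.680 (0.210 to 2.15), rested on 8 and 7 UMIs. Stromal-like cells had 1.24 for COL4A1, 1.47 for COL4A2, 0.606 for COL4A5 and 0.613 for COL4A6. COL3A1, a marker of the stromal list, had 0.623 in the same cells, so these falls are not read as particular to the chains. Ratios of at least 2-fold upwards or downwards were found for 6.78% and 2.34% of all genes in podocyte-like cells for 4.33% and 1.42% in proximal tubule-like cells and for 4.11% and 2.20% in stromal-like cells. Of the members with 50 or more UMIs in these classes, only COL4A4 in both epithelial classes and COL4A3 in proximal tubule-like cells passed it, downwards. In other named classes members passed it upwards, such as COL4A1 (5.09) and LAMB2 (2.66) in neuronal-like cells. LAMA5 did so in Schwann or neural crest glia-like cells (2.42). The share of all genes was not computed for those classes. Intervals cover counting error of 1 library per condition.

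LAMB2 had a ratio of 0.704 (0.657 to 0.755) in podocyte-like cells, and of 0.998 (0.889 to 1.12) in proximal tubule-like and 0.933 (0.835 to 1.04) in stromal-like cells. Over all cells its ratio was 1.03 (0.99 to 1.08). Its share of LAMB1 and LAMB2 over all cells was 25.4% with VC and 25.1% with TNFα. The lower LAMB2 level and share of the bulk TNFα libraries were thus not seen over all single cells. LAMB1 stood at 0.887 (0.838 to 0.939) in podocyte-like cells as a class, but at 1.44 (1.32 to 1.58) in cluster 3 and 0.673 (0.624 to 0.726) in cluster 8. Cluster 3 went from 63.6% to 44.3% LAMB2 and cluster 8 from 24.3% to 27.2%. The class went from 43.1% to 37.6%, a direction that turned when the libraries were clustered without alignment. The α3, α4 and α5 share went from 19.4% to 13.3% in podocyte-like, from 12.2% to 8.90% in proximal tubule-like and from 20.4% to 10.8% in stromal-like cells. In stromal-like cells nearly all of it was COL4A5, with α3 and α4 together at 0.0739% with VC and 0.109% with TNFα. NPHS1 (nephrin) went from 389 to 219.5 CPM in podocyte-like cells. It was higher with TNFα in each other named class, such as 11.6 and 29.7 CPM in proximal tubule-like and 3.87 and 20.8 in stromal-like cells. Over all cells NPHS1 stood at 63.9 CPM with VC and 66.8 with TNFα.

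RNA of a stromal collagen, COL3A1, stood at 79.3 CPM with VC and 273 with TNFα in proximal tubule-like cells and at 381 and 483 in podocyte-like cells. In stromal-like cells themselves it was lower with TNFα, at 2183.9 and 1361.5 CPM. COL4A1 in neuronal-like cells stood at 22.8 and 116 CPM, beside COL3A1 at 116 and 403 in the same cells. The part of such RNA in the differences between conditions was not tested.

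Across 30 cluster profiles of both libraries, Pearson's r of log2(CPM + 1) was 0.96 between COL4A1 and COL4A2, 0.71 between COL4A3 and COL4A4, 0.79 between COL4A5 and COL4A6 and 0.47 between LAMB1 and LAMB2. The profiles share libraries and depth, so these are descriptions. Of 15819 genes compared, those most like COL4A3 were UGT2A3 (0.83), FBP1 (0.81), SLC34A3 (0.81), ACSM2B (0.78) and TRPV4 (0.78). COL4A3 had 78 VC and 36 TNFα UMIs in all, of which 63 and 18 were in proximal tubule-like cells, so its r values rest largely on the profiles of those cells. After COL4A2, COL4A1 was most like ITGA1 (0.88), GUCY1A1 (0.84), LIMS1 (0.83) and PHF11 (0.83). LAMB1 was most like MIR503HG (0.87), FBXO17 (0.86), ADAMTS1 (0.84), SPTLC3 (0.81) and CYBA (0.81), and LAMB2 most like AXL (0.91), CTDSP1 (0.90), SELENOP (0.90), B9D1 (0.88) and ALDH9A1 (0.87). No gene stood in more than 1 of these lists.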

How the data were processed

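Bulk RNA was measured in 13 libraries and single-cell RNA in 2 of 3; a D25 single-cell library was not analysed here. The members and gene lists were chosen with earlier results of these data known. Per the submitters' processing notes, bulk reads were aligned by the authors with STAR 2.7.8a and counted by HTSeq 0.11 (the study's methods name another HTSeq version), and the authors deposited log2 values made with limma voom. These values equal log2(CPM + 1) with 0.5 added to each count, and 100% of them gave whole reads within 0.01 reads. How the listed genes were filtered is not stated in these sources. The authors deposited single-cell UMI counts as filtered matrices, without normalization, whose headers name Cell Ranger 6.0.1, while the submitters' notes name 2.1.1.

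Set 2 was fitted with 1 mean per day, and the TNFα set with time and treatment, by limma 3.58.1 (R 4.3.3, eBayes with a mean trend). P-values were two-sided, adjusted by Benjamini-Hochberg over all genes of a table and called under 0.05. Set 1 and single times have no test. Alternatives were edgeR 4.0.16 (TMM) and DESeq2 1.42.0 on recovered reads, another pseudocount (0.1), a filter at a mean of 1 CPM, median centring, no trend, a replicate block and leaving out each library. The fits were tested on simulated data. Org1 and Org2 are not said to be shared between days. CPM per kilobase used the length of the main transcript in GENCODE 44.

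Cells with over 500 genes were embedded by 30 components of 3421 variable genes without members and pathway genes, aligned with Harmony (own code), and clustered by Leiden at resolution 0.25 (scanpy 1.11.5, leidenalg 0.10.2). A cluster was named from at least 3 raised markers. Scrublet's automatic threshold called 0 doublets, so cells scoring over 0.2 (2.80% of VC and 6.78% of TNFα cells) were kept, and left out as an alternative chosen after seeing the data. The genes named were the 10 members, up to 5 pathway genes called higher and 5 called lower per comparison by size of change, and the 5 genes most like COL4A1, COL4A3, LAMB1 and LAMB2. NPHS1, COL3A1, DDN, the pathway genes with single-cell levels and unnamed clusters were named after their values were seen. Some genes that this rule names are not reported here.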

Additional observations from a re-analysis of the deposited data

Results flagged for a closer look

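The laminin chains LAMA5 and LAMC1 were higher with TNFα in stromal-like cells and lower in podocyte-like cells taken as a class. The TNFα to VC ratio of LAMA5 was 1.99 in stromal-like, 1.18 in proximal tubule-like and 0.874 in podocyte-like cells, and that of LAMC1 was 1.38 in stromal-like and 0.845 in podocyte-like cells. Of the podocyte-like cells, cluster 8 was lower with TNFα (0.757 for LAMA5 and 0.715 for LAMC1), whereas the intervals of the larger cluster 3 held a ratio of 1 (0.909 to 1.06 for LAMA5 and 0.906 to 1.11 for LAMC1). Each class has 1 library per condition, so the differences between classes were not tested.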

How the results depend on the processing

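Between D21 and D29 of set 2, COL4A3, COL4A4, LAMA5 and LAMC1 were called in all 13 alternative fits. Between D21 and D25, 1 member was called, against 3 with DESeq2 and 2 each with edgeR, a mean CPM filter, median centring and the replicate block. Leaving out 1 library gave 0 to 3 (0 without either D25 library, 3 without either D29 library, 2 without the first D21 library). Between D25 and D29, 2 members were called, against 0 without a trend and 0 to 4 with 1 library left out (0 without either D25 library or the second D29 library, 4 without the first D29 library). Org1 and Org2 are not said to be shared between days, so the numbers were not taken as pairs. Same-numbered set 2 libraries correlated at 0.141, 0.0756 and 0.268 in their deviations, all positive, which does not settle whether they were pairs. The replicate block moved no other count of called members by over 1.5 times. It added COL4A6 and LAMB1 to the D21 to D29 calls and LAMA5 to those of D25 to D29. Over all genes the block called 6056 between D21 and D29, against 5081. It called 2091 between D21 and D25, against 1486, and 1118 between D25 and D29, against 574. With median centring the median change of all genes from D21 to D29 was -0.12, and 2408 genes were called higher and 4667 lower, against 2778 and 2303. From D21 to D25 it called 971 higher and 1281 lower, against 937 and 549, and with TNFα DESeq2 called 1198 higher and 970 lower, against 1776 and 2285. With 1 library left out, the lone library of a day was assumed to vary like the others. Over all genes the calls by limma, edgeR or DESeq2 ran from 2358 to 7075 (5081 as reported) for D21 to D29, from 241 to 2252 (1486) for D21 to D25, from 0 (limma, without either D25 library) to 2014 (574) for D25 to D29 and from 1310 to 4574 (4061) for TNFα. In the TNFα set 3 of 6 members stayed called without the time term.

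Single-cell clustering without alignment put 14943 cells in 1 unnamed cluster, 639 of VC and 14304 of TNFα. The class of most TNFα cells, and so the TNFα to VC ratios by class, thus rested on the alignment. Without alignment, podocyte-like cells numbered 1353 with VC and 1240 with TNFα, against 1408 and 4624. There the podocyte-like TNFα library had 14.5% of α3, α4 and α5 (13.3% with alignment) and 45.4% LAMB2 (37.6%), so that TNFα minus VC was -4.13 in place of -6.08 percentage points for the collagen share and reversed to 2.49 from -5.55 for LAMB2. In proximal tubule-like cells, unthinned COL4A3 was seen in 3.87% of VC and 0.565% of TNFα cells (0.490% and 0.220% thinned). COL4A4 was seen in 4.04% and 1.70% at 3000 UMIs and in 12.2% and 2.73% unthinned (2.04% and 0.879% thinned). COL4A3 rests on 78 VC and 36 TNFα UMIs in all, which limits its order between classes.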

Other observations

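Cluster 15, with 73 VC and 354 TNFα cells, carried 6 endothelial markers but was led by other genes such as ACTG2 and GJA4, and stayed unnamed. With VC it held COL4A1 at 628 CPM (545 to 721) and COL4A2 at 394 CPM (329 to 469), above each named class, and COL4A3 and COL4A4 at 0 UMIs. Its α3, α4 and α5 share was 3.5% (1.8 to 6.0) of collagen IV UMIs with VC.

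Cluster 12 (845 VC cells, led by SPRR2F and NPY) held LAMB2 at 39.1 and LAMB1 at 55.4 CPM, a LAMB2 share of 41.3%. Cluster 13 (713 VC cells, led by MSX1 and DKK1) held LAMB2 at 41.2 and LAMB1 at 24.4 CPM. COL4A3 and COL4A4 were at 0 UMIs with VC in both clusters.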
